A study of Caenorhabditis elegans with 2 samples.

Results

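The regions described are the AMA-1 peaks at tRNA genes in the worm Caenorhabditis elegans. Whole late embryos of N2, the standard wild-type strain, were used, with males and females together and the age unknown. AMA-1 is the largest subunit of RNA polymerase II, and its occupancy was measured by chromatin immunoprecipitation followed by sequencing in 2 biological replicates of 1 group. A peak was counted when its summit lay within 250 bp of a gene annotated as tRNA on chromosomes I to V and X, in the authors' relaxed list made from both replicates. The rule used annotation and position, and no peak height. It gave 129 of 30000 peaks, which lay at 131 of 612 tRNA genes (21.4%). All 129 had the fixed width of 350 bp with the summit at the centre. The height of a peak is the authors' signal value, a caller score with no stated scale, so peaks are given by their rank in a list of 30000, where rank 1 is the highest. The series holds 1 condition and no control file was analysed here, so no groups were compared and no test was made. Each count or median is set beside the same value over all pooled peaks, as a description.

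Genes for tRNA are transcribed by RNA polymerase III. Its promoter lies inside the gene, in the A box and the B box, which transcription factor TFIIIC binds before TFIIIB and the polymerase are placed just upstream of the start. Transcription ends at a short run of T. In human cells, RNA polymerase II has also been mapped close to active tRNA genes. Many worm tRNA genes lie in introns of protein-coding genes or close to their ends.

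The sequences of some of the tRNA genes named below, not of all, are shown from the RefSeq genome of assembly WBcel235. They make visible the internal promoter and the similarity of these genes. Capitals mark the B box as found by the motif GTTCNANNC on the gene strand.
C33G3.t2 (tRNA-Lys, chrX:14063946-14064018, minus strand): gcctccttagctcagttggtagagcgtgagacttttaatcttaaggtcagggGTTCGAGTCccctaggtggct
C04A2.t1 (tRNA-Leu, chrII:6853204-6853285, plus strand): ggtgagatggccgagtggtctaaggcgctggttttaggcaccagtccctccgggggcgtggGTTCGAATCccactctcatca
Y65A5A.t1 (tRNA-Ala, chrIV:16398384-16398455, plus strand): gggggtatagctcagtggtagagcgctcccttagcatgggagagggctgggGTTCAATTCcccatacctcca
Y97E10C.t1 (tRNA-Thr, chrV:7730654-7730725, minus strand): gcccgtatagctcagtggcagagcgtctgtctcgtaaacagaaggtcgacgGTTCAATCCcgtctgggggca
C16B8.t2 (tRNA-Pro, chrX:3970096-3970167, plus strand): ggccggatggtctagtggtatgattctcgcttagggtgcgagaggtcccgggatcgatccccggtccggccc
C47E8.t1 (tRNA-Tyr, chrV:14689532-14689615, plus strand): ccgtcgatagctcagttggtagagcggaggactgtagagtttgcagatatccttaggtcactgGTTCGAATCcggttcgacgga
W03C9.t1 (tRNA-Val, chrII:11959375-11959447, plus strand): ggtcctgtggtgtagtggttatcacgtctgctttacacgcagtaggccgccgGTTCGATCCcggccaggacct
C05G6.t1 (tRNA-Val, chrIV:620482-620554, plus strand): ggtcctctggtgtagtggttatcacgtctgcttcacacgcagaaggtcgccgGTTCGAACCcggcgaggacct
The motif was found in 7 of these 8 genes and these letters are not in C16B8.t2. Over all 612 tRNA genes 587 (95.9%) held it, among them 124 of the 131 with a peak (94.7%). On either strand it lay within 99 of the 129 peaks at tRNA genes (76.7%) and within 3881 of all 30000 pooled peaks (12.9%). The rule took peaks close to tRNA genes, which hold the motif, so a higher share at these peaks was fixed in advance. Of these 8 genes, C33G3.t2 has 14 identical copies among the annotated tRNA genes, itself included, Y65A5A.t1 has 15 and C04A2.t1 has 3, while the other 5 occur once. Over all 612 tRNA genes 143 occur once, so the genes shown do not stand for the rest in this.

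The highest peaks at tRNA genes were in the upper ranks of the pooled list, from rank 181 on. The peak at C33G3.t2 (tRNA-Lys; chromosome X, 14063859 to 14064208) was at pooled rank 181, with rank 201 in replicate 1 (signal value 54.8) and rank 1076 in replicate 2 (13.6). Its summit lay 16 bp upstream of the tRNA gene and within 250 bp of the end of dyc-1. At C37A2.t1 (tRNA-Cys; chromosome I, 6781621 to 6781970), in an intron of the cyclin E gene cye-1, the pooled rank was 252, with rank 754 in replicate 1 (34.5) and rank 44 in replicate 2 (28.2). Rank 44 was the highest at a tRNA gene in either replicate. A second pooled peak at this gene (rank 8736) overlapped the same replicate peaks. At C04A2.t1 (tRNA-Leu; chromosome II, 6853099 to 6853448), in an intron of C04A2.15 and near the end of the DnaJ-domain gene dnj-5, it was 278, with ranks 736 in replicate 1 (34.7) and 75 in replicate 2 (24.9). At Y65A5A.t1 (tRNA-Ala; chromosome IV, 16398422 to 16398771) it was 298, with ranks 165 in replicate 1 (60.7) and 157 in replicate 2 (21.1).

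These 4 peaks were the members in the authors' list thresholded by the irreproducible discovery rate (IDR), 4 of 129 or 3.1%, against 1.59% of all pooled peaks. A count of 4 gives little precision. Each of the 4 was among the 1000 highest peaks of replicate 1, and C37A2.t1, C04A2.t1 and Y65A5A.t1 also of replicate 2, where C33G3.t2 was at rank 1076.

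The next peak by pooled rank was at sup-5 (tRNA-Trp; chromosome III, 8678376 to 8678725), a gene known for mutations that turn its product into an amber suppressor. Its pooled rank was 478, with rank 673 in replicate 1 (signal value 35.6) and 839 in replicate 2 (14.4), and its summit lay inside the tRNA gene, in an intron of fli-1. The peak at M01E5.t1 (tRNA-Lys, pooled rank 520) had ranks 891 in replicate 1 and 282 in replicate 2. It was also the only one of the 129 with another small RNA gene within 250 bp, the SL2 spliced leader gene sls-2.9, and it lay near the end of the topoisomerase gene top-1, so the signal of these genes cannot be told apart. F56F3.t1 (tRNA-Arg, pooled rank 592) had ranks 932 in replicate 1 and 218 in replicate 2. Its pooled summit lay 84 bp upstream of the tRNA gene and within 250 bp of the end of mstr-2, so these signals cannot be told apart either. Together with the IDR members other than C33G3.t2, these 3 were the 6 tRNA genes within the 1000 highest peaks of both replicates. Y97E10C.t1 (tRNA-Thr, pooled rank 613) had rank 518 in replicate 1 and no peak in replicate 2. C16B8.t2 and its neighbour C16B8.t3 (tRNA-Pro) shared 1 pooled peak at rank 1038, with rank 951 in replicate 1 and 6011 in replicate 2. B0350.t1 (tRNA-Lys, pooled rank 1274) had ranks 1669 in replicate 1 and 2683 in replicate 2.

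**Figure D1:**
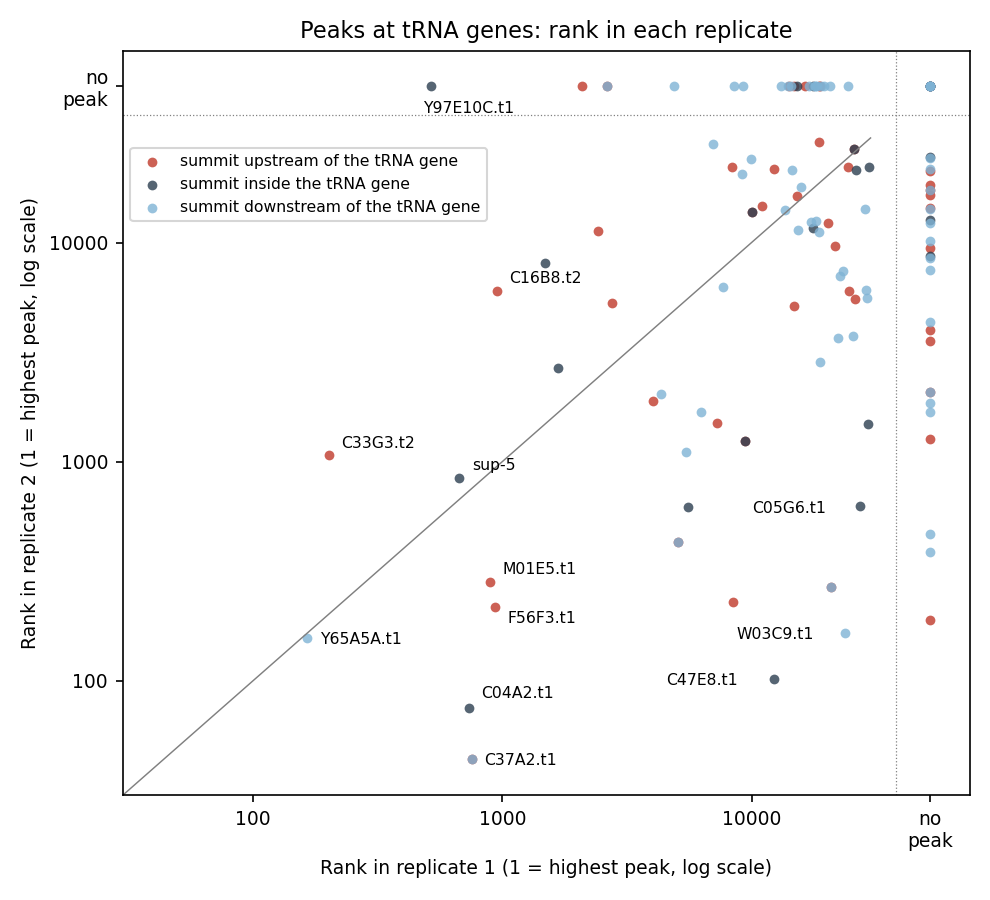
Rank of each of the 129 peaks at tRNA genes in replicate 1 (horizontal) and replicate 2 (vertical), both on log scales with 1 as the highest peak; the diagonal marks equal rank and the outer strips hold peaks with no overlapping peak in that replicate. Colours give the place of the pooled summit, and points low on the right, such as W03C9.t1 at ranks 23638 and 165, ranked high in replicate 2 alone.

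The pooled ranks of the 129 peaks ran from 181 to 29478 with a median of 13103, where the median of any full list is 15000.5. Their pooled signal values ran from 10.6 to 68.5 with a median of 16.8, against a median of 15.8 and a highest value of 1430 over all pooled peaks. A peak of replicate 1 overlapped 92 of the 129 by at least 1 bp (71.3%, against 80.3% of all pooled peaks), and a peak of replicate 2 overlapped 95 (73.6%, against 59.9%). Both replicates had a peak at 67 (51.9%, against 44.8%), and neither had one at 9 (6.98%, against 4.59%). Neighbouring pooled peaks can overlap the same replicate peak, so the 92 stand for 85 peaks of replicate 1 and the 95 for 88 of replicate 2.

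The replicates placed the tRNA genes at different heights. The median rank of the overlapping peaks at tRNA genes was 14398 in replicate 1 (n = 92), against 10795 over all pooled peaks with a peak there, and 6261 in replicate 2 (n = 95), against 10274. At the 47 peaks where at least 90% of 31-base words occur once in the genome, the median in replicate 2 was 13721 (n = 32), so the direction against all pooled peaks turned. Among as many of the highest peaks of replicate 1 as the IDR list holds were 2 of the 129 (1.55%, against 2.06% of all pooled peaks), and among those of replicate 2 were 16 (12.4%, against 2.00%), at 13 different replicate peaks. With the 1000 highest, the counts were 10 in replicate 1 (7.75%, against 4.23%) and 19 in replicate 2 (14.7%, against 4.07%). With the 3000 highest they were 17 (13.2%, against 12.3%) and 35 (27.1%, against 10.9%). Among the 3000 highest of both replicates were 9 (6.98%, against 3.39%). Where both replicates had a peak, the rank was higher in replicate 2 at 45 of 67 (67.2%, against 48.7%). With 1 library on each side, this difference could not be tested.

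The own list of each replicate, without the pooled peaks, held more peaks at tRNA genes in replicate 2. Replicate 1 had 103 peaks within 250 bp of a tRNA gene, or 0.343% of its list, and replicate 2 had 175, or 0.583%. Among as many highest peaks as the IDR list holds, the shares were 0.42% in replicate 1 (2 peaks) and 2.94% in replicate 2 (14 peaks), and among the 1000 highest 0.9% (9) and 1.8% (18). A summit lay at 107 tRNA genes in replicate 1 and at 179 in replicate 2. The lists shared 59 tRNA genes, 55.1% of those of replicate 1 and 33% of those of replicate 2. All 59 also had a pooled summit. The same overlap was not counted over all genes, so it is not shown to be particular to tRNA genes. At 15 tRNA genes only the pooled list had a summit, and at 370 no list had one.

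**Figure D2:**
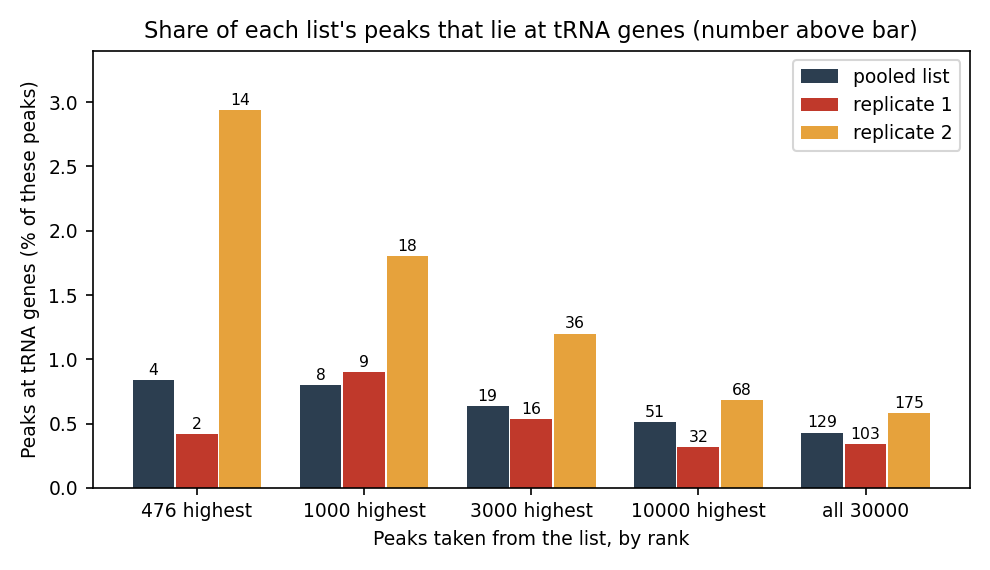
Share of the peaks of each list that lay within 250 bp of a tRNA gene, for as many highest peaks as the IDR list holds (leftmost), the 1000, 3000 and 10000 highest and the whole list, with the number of such peaks above each bar. In replicate 2 the share was 2.94% in the leftmost class and 0.583% over the whole list, while in replicate 1 it was 0.42% and 0.343%.

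Single genes show how far the replicates could differ. C47E8.t1 (tRNA-Tyr), in an intron of gasr-8, was rank 102 in replicate 2 and 12314 in replicate 1. W03C9.t1 (tRNA-Val), in an intron of W03C9.6, was rank 165 in replicate 2 and 23638 in replicate 1, and C05G6.t1 (tRNA-Val), in an intron of C18H7.1, was 625 in replicate 2 and 27333 in replicate 1. These 3 genes have no identical copy. C29F7.t3 (tRNA-Ile) was rank 1485 in replicate 2 and 29393 in replicate 1. At C47E8.t1 the summit was 127 bp from the gene start in replicate 1, beyond the end, and 20 bp in replicate 2. At W03C9.t1 these distances were 205 and 82 bp, and at C29F7.t3 169 and 17 bp. The ranks compared at these genes are therefore of differently placed summits. At C05G6.t1 they were 19 and 21 bp. Where replicate 1 ranked higher, the widest gaps among members within the 3000 highest of a replicate were smaller. F15D3.t1 (tRNA-Lys), near the ends of timm-23 and pals-1, was rank 2430 in replicate 1 and 11252 in replicate 2. C25F6.t1 (tRNA-Met), near the end of the junction scaffold gene dlg-1, was 1486 in replicate 1 and 8051 in replicate 2, and C16B8.t2 is given above. The overlapping replicate 2 peak of C25F6.t1 had its summit nearer to the neighbouring tRNA gene C25F6.t2, so these ranks are not of 1 gene alone. For the following genes, named after their values were seen, replicate 2 had a peak among its 3000 highest and replicate 1 none. They were F29C4.t1 (tRNA-Arg, rank 189, in an intron of the collagen gene col-99) and F09B9.t2 (tRNA-Arg, 388, in an intron of unc-115). Next came T15B12.t1 (tRNA-Met, 469, in an exon of T15B12.1), F32B4.t1 (1262), C42D8.t1 (1677), F56C3.t1 (1849) and F42A10.t1 (2081). The reverse, a peak among the 3000 highest of replicate 1 and none in replicate 2, was found at Y97E10C.t1 (rank 518), M02F4.t2 (2097), C28A5.t2 (2629) and T04F8.t1 (2631), the last 3 also named after their values were seen. The pooled summit at C28A5.t2 lay 159 bp from the tRNA gene, in an exon of ceh-43 and near the start of that gene. At Y7A9D.t3 (tRNA-Val, rank 147 in replicate 2) and C28G1.t1 (tRNA-Glu, 664), also named after their values were seen, neither the pooled list nor replicate 1 had a summit. Across the 61 different pairs of replicate peaks at tRNA genes, Spearman's rho of the ranks was 0.378, and over all 11777 pairs at pooled peaks it was 0.23. These are correlations across peaks of the same 2 libraries and not across replicates.

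Part of the sequence at these peaks occurs more than once. The 612 tRNA genes have 200 different sequences, and 143 have no identical copy. At the peaks at tRNA genes a median of 85% of 31-base words occurred once in the genome, with a lowest value of 66.9%, against a median of 100% over all pooled peaks, and at least 90% did at 47 of 129 (36.4%), against 95.4% of all pooled peaks. The ranks differed along this line in replicate 2. There the 47 had a median rank of 13721 (n = 32 with a peak), lower in height than the 10274 of all pooled peaks, and the other 82 had 5139 (n = 63). In replicate 1 the medians were 15450.5 (n = 32) and 13847 (n = 60). Summits within 50 bp of the tRNA gene showed the same in replicate 2, with 14199 at the more unique (n = 9) and 5560 at the less unique (n = 36), as did those farther off, with 12437 (n = 23) and 4349 (n = 27). By gene, peaks at tRNA genes without an identical copy had a median rank of 12270 in replicate 2 (n = 21), and those at genes with copies 5573.5 (n = 74). No source used here says how reads that match several places were treated, and the part of shared sequence in these ranks was not tested. Of the peaks in introns named above whose replicate 2 peak was among the 1000 highest, those at W03C9.t1, C05G6.t1 and C47E8.t1 had 95.9%, 91.2% and 90.3% of words found once. Those at C37A2.t1, C04A2.t1, F29C4.t1, F09B9.t2 and sup-5 had 82.8%, 81.9%, 85.3%, 80.9% and 83.1%. The tRNA genes with no summit in any list had a median of 82.8% in 350 bp around the gene, against 83.4% for those with a pooled summit.

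In the pooled list, the higher peaks mostly had their summits close to the tRNA gene, upstream of its start or inside it. Of the 129 pooled summits, 46 lay upstream of the start (35.7%), 23 inside the gene (17.8%) and 60 beyond its end (46.5%). For a gene of median length, 72 bp, each flank makes up 43.7% of the window and the gene 12.6%. Among the 19 peaks at tRNA genes in the 3000 highest pooled peaks, 10 summits were upstream, 7 inside and 2 beyond the end, with a median position 7 bp upstream of the start and 14 of 19 within 50 bp of the gene. The 32 between ranks 3000 and 10000 had 14, 4 and 14. The 78 below rank 10000 had 22, 12 and 44, with a median position 91.5 bp downstream of the start, and 31 of 78 within 50 bp (39.7%).

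The own list of each replicate was counted in the same way. Among the 3000 highest peaks of replicate 1, 9 of 16 summits were upstream, 6 inside and 1 beyond the end (6.25%), and among its peaks below rank 10000, 29 of 71 were beyond (40.8%). In replicate 2 the counts in the 3000 highest were 17, 8 and 11 of 36 (30.6% beyond), and below rank 10000, 44 of 107 were beyond (41.1%). Within 50 bp of the gene lay 10 of 16 of the 3000 highest in replicate 1 (62.5%), against 43.7% below rank 10000, and 27 of 36 in replicate 2 (75%), against 43%.

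At the 15 named members with a peak in both replicates, the summits of the replicates lay 2 to 328 bp apart, with a median of 58 bp. At sup-5 they were 24 bp inside the gene in replicate 1 and 6 bp inside in replicate 2, and at C05G6.t1 they were 19 bp and 21 bp inside. At C33G3.t2 they were 32 bp and 3 bp upstream. At Y65A5A.t1 they were far apart. In replicate 1 the summit was 224 bp from the gene start, beyond the end of the tRNA gene, close to the pooled summit at 213 bp and near the end of Y65A5A.1, whereas in replicate 2 it was 10 bp upstream of the tRNA gene. The widest gap was at C25F6.t1, where the summit was 16 bp upstream of the gene in replicate 1 and 312 bp from the gene start, beyond its end, in replicate 2. The replicate 2 summit lay nearer to the neighbouring gene C25F6.t2, so the gap is between peaks at different tRNA genes. Over the members, the overlapping replicate peak itself had a summit at a tRNA gene for 87 of 92 in replicate 1 and 90 of 95 in replicate 2.

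**Figure D3:**
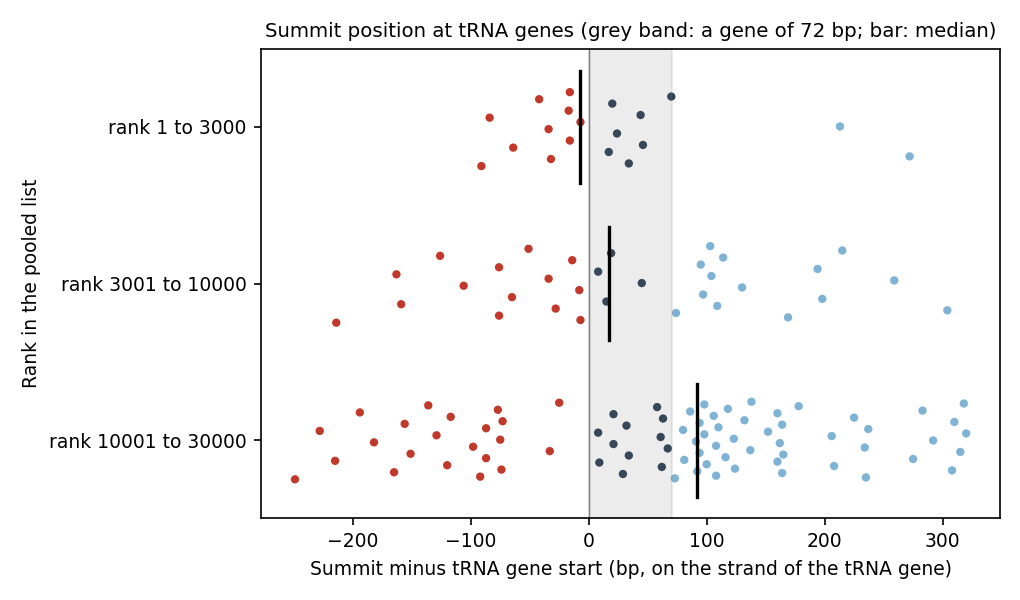
Position of the 129 pooled summits relative to the start of the nearest tRNA gene, in bp on that gene's strand, in 3 classes of pooled rank; colours mark summits upstream (left), inside and beyond the end (right), and bars the median of each class. Of the 19 highest, 2 lay beyond the end of the gene, against 44 of the 78 lowest.

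Most of the peaks lay in introns or outside protein-coding genes. Of the 129 summits, 50 lay in introns of protein-coding genes (38.8%, against 33.2% of all pooled peaks), 27 in exons (20.9%, against 42.4%) and 52 outside protein-coding genes (40.3%, against 24.4%). The rule places summits near tRNA genes, and where the tRNA genes themselves lie was not counted. These shares and those below therefore cannot be told apart from the place of the tRNA genes. The start of a protein-coding gene lay within 250 bp of 5 summits (3.88%, against 13.3%) and an end within 250 bp of 17 (13.2%, against 12.5%). At 29 of the 50 summits in introns the nearest tRNA gene was on the strand of the summit's host gene, and at 21 on the other strand.

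Among the 3000 highest pooled peaks, none of the 19 summits at tRNA genes was in an exon (against 45.1% of all peaks of these ranks) or near a protein-coding start (21.5%), while 7 were near an end (36.8%, against 24.4%) and 12 outside protein-coding genes (63.2%, against 30.7%). The highest peaks of each replicate were few. Of the tRNA peaks among the 1000 highest of replicate 1, 3 of 9 were in introns (33.3%, against 22.1% of its 1000 highest peaks) and 5 of 9 near an end (55.6%, against 35.2%). Among the 1000 highest of replicate 2, 11 of 18 were in introns (61.1%, against 25.7%) and 3 of 18 near an end (16.7%, against 11.5%). Over the whole lists the shares in introns were 37.9% of 103 in replicate 1 and 39.4% of 175 in replicate 2, and those near an end 12.6% and 9.14%. The 107 peaks at tRNA genes with no protein-coding start or end and no other small RNA gene near had a median rank of 15199.5 in replicate 1 (n = 74) and 7515 in replicate 2 (n = 79). The other 22 had medians of 4543.5 in replicate 1 and 1565 in replicate 2. At these 22 the AMA-1 signal cannot be told apart from that of the neighbouring gene. Of the 107, 39 lay outside protein-coding genes. The rest lay in introns or exons, where the AMA-1 signal cannot be told apart from that of the host gene.

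**Figure D4:**
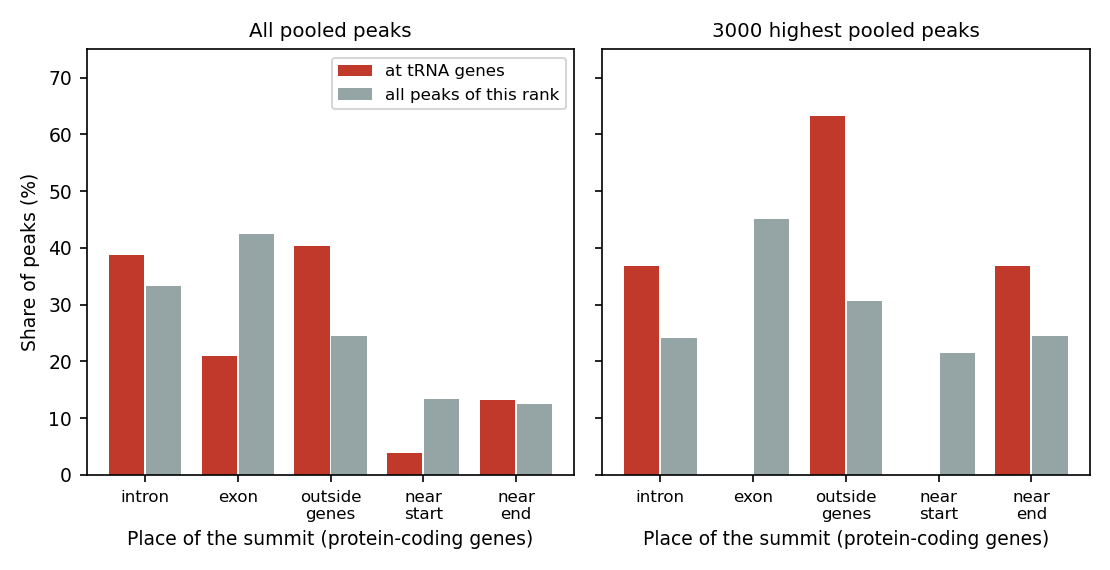
Share of summits in introns, in exons and outside protein-coding genes, and within 250 bp of a protein-coding start or end, for peaks at tRNA genes (left bar of each pair) and all pooled peaks of the same ranks (right bar). Among the 3000 highest pooled peaks, 0 of 19 summits at tRNA genes lay in an exon or near a start, so those bars are absent.

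The X chromosome holds a large part of the worm's tRNA genes, 276 of 612 (45.1%). It held 42 of the 129 peaks (32.6%), against 14% of all pooled peaks. Read per gene, a pooled summit lay at 48 of 276 tRNA genes on X (17.4%) and at 83 of 336 on the autosomes (24.7%). In replicate 1 the shares were 16.7% on X and 18.2% on the autosomes, and in replicate 2 they were 23.9% and 33.6%. Chromosome III had the highest share in each list, with 35.9% in the pooled list (23 of 64), 28.1% in replicate 1 and 37.5% in replicate 2. The 1000 highest peaks of replicate 1 overlapped 2 of the 42 peaks on X and 8 of the 87 on the autosomes. Those of replicate 2 overlapped 4 and 15. Over all pooled peaks, on all chromosomes together, the shares were 4.23% in replicate 1 and 4.07% in replicate 2. They were not counted for X and the autosomes apart, and the counts on X are small.

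**Figure D5:**
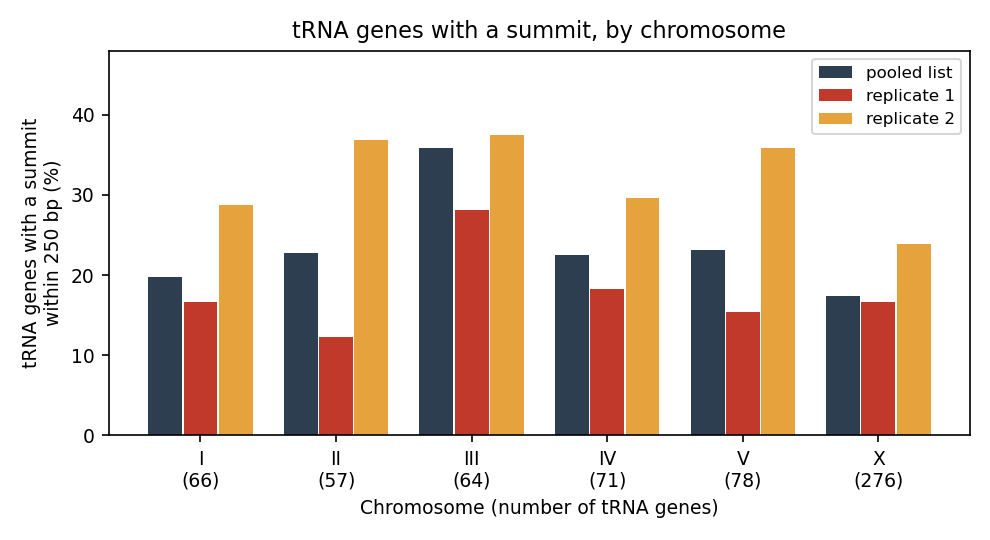
Percentage of the tRNA genes of each chromosome with a summit within 250 bp in the pooled list and in the list of each replicate, with the number of tRNA genes in parentheses. X, with 276 tRNA genes, had 17.4% in the pooled list, and chromosome III, with 64, had 35.9%.

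Peaks were spread over the amino acids. RefSeq gives a product for all but 5 of the 612 genes, covering 21 kinds of tRNA, and each kind had at least 1 gene with a pooled summit. Among kinds with at least 10 genes, the share with a pooled summit ran from 1 of 12 for tRNA-Trp (8.33%, the gene sup-5) and 4 of 39 for tRNA-Ser (10.3%) to 9 of 27 for tRNA-Asp (33.3%) and 5 of 14 for tRNA-Phe (35.7%). The order was not the same in replicate 2, where tRNA-Cys (8 of 13, 61.5%), tRNA-Met (11 of 20, 55%) and tRNA-Gly (25 of 55, 45.5%) had the highest shares, against 15.4%, 10% and 18.2% in replicate 1. tRNA-Asp and tRNA-Phe, high in the pooled list, had 25.9% and 35.7% in replicate 2 and 33.3% and 35.7% in replicate 1. The only gene for tRNA-Sec, which carries selenocysteine, had its pooled peak at rank 26893. Its summit lay 228 bp upstream of the tRNA gene, in an exon of K11H12.8. The overlapping peaks were at rank 24294 in replicate 1 and 22155 in replicate 2. Neither replicate's own list had a summit within 250 bp of this tRNA gene. Isolated tRNA genes, with no other within 1000 bp, had a pooled summit at 92 of 376 (24.5%), those with 1 neighbour at 28 of 168 (16.7%) and those with 2 or more at 11 of 68 (16.2%). By the number of identical copies there was no steady order. A pooled summit lay at 21.7% of the 143 genes with no other copy, 19.1% of those with 2 to 9, 24.2% of those with 10 to 19 and 19.3% of the 119 with 20 or more. In replicate 1 the shares were 15.4%, 14.5%, 18.7% and 21.8%, and in replicate 2 they were 29.4%, 30.3%, 29.8% and 26.9%.

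Other classes of short RNA genes, most of them transcribed by polymerase II, were counted with the same window. A pooled summit lay at 21.4% of tRNA genes (median length 72 bp), against 48.3% of snoRNA genes (130 bp), 38.8% of snRNA genes (109 bp), 33.3% of miRNA genes (95 bp) and 5.22% of piRNA genes (21 bp). In the IDR list the shares were 0.654% for tRNA genes, against 7.8%, 14.7%, 9.58% and 0.0781%. In replicate 1 the tRNA share was 17.5% and in replicate 2 29.2%, while for snRNA genes they were 36.4% and 38.8% and for miRNA genes 33% and 30.3%. A higher share in replicate 2 was not particular to tRNA genes. It was also found for protein-coding genes (43.2% and 56.5%), pseudogenes (8.69% and 25.5%) and lincRNA genes (29.9% and 37.6%). For piRNA genes the share was lower in replicate 2 (6.48% and 4.63%). The classes differ in length, and the snRNA class holds some polymerase III genes.

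Other transcripts known or presumed to be made by polymerase III were looked up by symbol. Of 19 listed genes 9 were matched in the annotation, and 2 of the 9 had a pooled summit. These were rpr-1, for the RNA of RNase P, which trims the leader of tRNA precursors (pooled rank 7395, 15395 in replicate 1 and 5656 in replicate 2), and the 5S rRNA gene rrn-4.16 (24910, and 10930 in replicate 1, with no summit in replicate 2). The Y RNA gene yrn-1 had a summit at rank 25551 in replicate 2 and in no other list. The genes for proteins of the polymerase III machinery are transcribed by polymerase II and were taken by their starts. Of 20 such genes 11 had a pooled summit within 250 bp of the start, against 19.3% of all protein-coding genes, with 8 in replicate 1 (against 18.4%), 7 in replicate 2 (against 19.2%) and 0 in the IDR list (against 0.581%). They included rpac-19, a subunit shared by polymerases I and III (pooled rank 2234), tftc-5, a TFIIIC subunit (3340), mafr-1, the repressor Maf1 (3933), the polymerase III subunit rpc-2 (6504) and tbp-1, the TATA-binding protein (7889). In replicate 2, rpc-1, the largest subunit of polymerase III, had a summit at rank 2795 and none in the other lists. The list was small, and this share was not tested.

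The limit of 250 bp set the members. The 3 farthest summits inside it were 245, 246 and 249 bp from a tRNA gene, at pooled ranks 19834, 11869 and 15331. The 3 nearest outside were at 252, 252 and 253 bp, at ranks 20416, 1714 and 26875.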

How the data were processed

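The deposited lists hold narrowPeak records on build ce11, per the labels and the deposited text: a relaxed list from each replicate's alignments and 1 further file, a relaxed list from both replicates, and an IDR list. The signal value is a score that the authors deposited with no stated scale. The deposited −log10 q-values reached 2.83 in the pooled list and were not used. No source used here gives the aligner, the peak caller or the read depth, so no interval covers read sampling. The ce10 lists were not used.

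Ranks follow the signal value, with ties in file order. A replicate peak matched a pooled peak on at least 1 bp of overlap, the highest one being taken. tRNA genes came from Ensembl release 115 on WBcel235, without mitochondrial genes, and names, products and sequence from RefSeq on the same assembly, in which all 612 IDs were found. Word uniqueness counted 31-base words on both strands of the 6 chromosomes, and GC content used 201 bp. Python 3.11.15, numpy 2.4.6 and pandas 2.3.3 were used. Functions for distance, overlap and position were tested on simulated peaks.

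The named members are those in the IDR list, the 10 highest pooled, the 5 highest in each replicate, and the 3 widest rank gaps each way among members in the 3000 highest of a replicate with a peak in both. The members and lists were chosen with earlier results of these data known. The 2 replicates are 1 group, so no test was made. The alternatives were other windows, rank limits, matching rules, single replicates, 1 peak per locus and a filter on unique sequence.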

Additional observations from a re-analysis of the deposited data

How the results depend on the processing

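Of 52 alternative values, 39 stayed within 1.5 times a count or within the SD between the replicates for a share or median rank, and 13 did not. For the median ranks this SD was 5753.73, taken from the medians of the 2 replicates themselves. Large shifts in a median rank were therefore also counted as within it, and this count says little about their stability. With only peaks of at least 90% unique sequence, 47 peaks at 46 tRNA genes were left, 1 of them in the IDR list, and their median rank in replicate 2 was 13721 in place of 6261. The tRNA genes within the highest peaks of replicate 1 numbered 10 for the 1000 highest, 2 for as many as the IDR list holds and 18 for the 3000 highest; in replicate 2 the 3000 highest held 39 in place of 18. The share of summits upstream was 32.2% within 100 bp. The share with a protein-coding start or end or another small RNA gene near was 17.1%, and became 13.3% within 100 bp, 19.4% within 500 bp and 16.5% with 1 peak per locus. From each replicate's own list the peaks at tRNA genes numbered 103 to 175 and the tRNA genes 107 to 179, the share upstream was 36.9% to 41.7%, and the share with a neighbour near was 17.1% to 17.5%. No paired analysis was possible because the replicates form 1 group. Read depth is unknown, so a tRNA gene without a summit is not shown to lack AMA-1.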

Other observations

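A run of TTTT within 25 bases after the gene, on its strand, was present at 130 of the 131 tRNA genes with a pooled summit (99.2%) and at 604 of all 612 (98.7%). The 201 bp around the summits at tRNA genes had a median GC content of 43.3%, against 38.8% over all pooled peaks. The rule took summits close to tRNA genes, so these 201 bp can hold the tRNA gene itself. Its part in the difference was not tested. Of the 129 peaks, 10 lay within 250 bp of more than 1 tRNA gene, and 9 tRNA genes had more than 1 peak.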
